A study of Mus musculus with 12 samples.

Results

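The interferon response genes described here are 41 mouse genes of the interferon pathway, namely receptor chains, transcription factors, nucleic acid sensors and the antiviral effectors that interferons induce. Each gene was represented by its probe set (a group of array probes that measure the same transcript) of the highest mean log2 intensity over all 12 arrays, among the probe sets that name only that gene. By this rule 39 of the 41 genes were measured, out of 18193 genes on the array. Isg15 was left out because its probe set also names another gene, and Ifi44 because no probe set names it. The choice of probe set used levels only and no difference between groups. The genes themselves were chosen with earlier results of these data known. RNA came from splenic CD4+ T cells of mice aged 6 weeks, sorted without CD8a, CD11b, CD69 and B220. Regulatory T cells (Treg) were taken as CD25hi cells, and conventional T cells (Tconv) as CD25- cells. NOD mice develop autoimmune diabetes spontaneously, and B6.H2g7 mice (B6g7 here) carry the NOD MHC haplotype on the B6 background, so both strains share H2g7. Each strain gave both populations, which makes 4 groups of 3 arrays. Every array took RNA pooled from 3 mice, and the series text calls the pools of a group independent. The labels name no treatment. The series asked whether Treg and Tconv cells differ by the same ratio in NOD as in B6g7.

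Interferons bind paired receptor chains on the cell surface, Ifnar1 with Ifnar2 for the type I interferons and Ifngr1 with Ifngr2 for interferon gamma. Kinases bound to these chains activate STAT proteins, which work with Irf9 or alone, and with Irf1 and Irf7 downstream, to switch on a large set of genes. Their products detect viral RNA, degrade RNA and nucleotides, block viral entry and release, and, as with Usp18, turn the signal down. T cells keep a low level of many of these genes without infection, and interferons also act on Treg and Tconv cells directly.

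Many genes induced by type I interferon carry a DNA element called ISRE in their promoters, which factors of the IRF family bind. The letters GAAA, any 2 bases and GAAA were searched as ISRE on both strands. The search took the 250 bases before each start listed for a gene (RefSeq, build GRCm38.p6). Some genes have several listed starts. Some of these starts, among them that of Oasl2, lie inside the annotated gene and not at its first base. A match was present in 9 of 35 promoters of the interferon response genes (25.7%) and in 978 of all 32851 promoters (2.98%). The 9 promoters belong to Ifit1, Ifit3, Ifitm2, Oas1a, Oas3, Rsad2, Bst2, Gbp2 and Gbp3, out of 29 genes with an entry. The element for interferon gamma signalling, searched as TTCNNNGAA, was present in 8 of the 35 promoters (22.9%) and in 7.02% of all promoters. Matches to both patterns can share bases. The promoters of Rsad2, Ifit1 and Gbp2 are shown because these 3 genes are among the 6 that stood out together on the same NOD arrays (described after the strain comparison) and their entries hold a match. Oasl2, another of the 6, had no match in its entry. Each runs 5′ to 3′ toward the start of its gene, ends at the base before it and has the ISRE matches in capitals.
Rsad2, chr12:26456453-26456702, minus strand: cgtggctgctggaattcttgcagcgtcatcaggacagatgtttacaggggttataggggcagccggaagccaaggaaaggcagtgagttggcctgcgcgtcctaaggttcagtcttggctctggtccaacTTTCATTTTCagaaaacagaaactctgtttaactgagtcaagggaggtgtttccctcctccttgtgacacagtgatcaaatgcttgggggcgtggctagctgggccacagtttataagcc
Ifit1, chr19:34640639-34640888, plus strand: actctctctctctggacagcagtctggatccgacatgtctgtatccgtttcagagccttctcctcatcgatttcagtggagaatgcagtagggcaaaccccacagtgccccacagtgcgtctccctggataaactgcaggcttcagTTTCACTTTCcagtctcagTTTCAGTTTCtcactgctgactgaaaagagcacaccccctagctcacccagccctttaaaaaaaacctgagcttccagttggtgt
Gbp2, chr3:142620413-142620662, plus strand: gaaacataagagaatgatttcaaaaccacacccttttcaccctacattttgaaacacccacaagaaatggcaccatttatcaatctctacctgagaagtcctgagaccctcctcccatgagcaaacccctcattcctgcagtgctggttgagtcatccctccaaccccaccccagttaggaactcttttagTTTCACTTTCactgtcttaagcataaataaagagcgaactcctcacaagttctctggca
The Rsad2 match begins 120 bases before the start, the matches of Ifit1 begin 104 and 85 bases before it, and the Gbp2 match begins 59 bases before it. In all 3 promoters the match reads on the strand opposite to the one shown. A match describes the letters only, and no binding was measured.

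The sorted cells followed their labels. Foxp3, which marks and specifies Treg cells, averaged a log2 intensity of 10.997 in B6g7 Treg and 11.05 in NOD Treg against 5.68 and 5.91 in the Tconv groups, and the labels give 89% to 96% Foxp3+ cells in the Treg pools. Median intensity per array lay between 83.93 and 88.57. Markers of B cells, NK cells, monocytes, neutrophils, dendritic cells and erythroid cells had summed intensities of similar range in all groups. The CD8 T cell sum ran from 201.2 to 211.8 in NOD Treg, below B6g7 Treg (248.4 to 261) and B6g7 Tconv (232 to 287.7). In NOD Tconv it ran from 207.5 to 246. With the markers of plasmacytoid dendritic cells these lists hold 44 measured genes. Of the 44, 0 were called between the strains over both populations, and 2 were called higher in Treg over both strains, Cd79b of the B cell list (0.79 ± 0.07) and Tcf4 of the plasmacytoid list (0.65 ± 0.10). The part of such cells in the Treg differences was not tested. In every group 4 of the 44 (Itgam, S100a8, Klra8 and Ppbp) lay under the 25th percentile of probe set means (a log2 intensity of 5.28), and 40 did not. All 39 interferon response genes had a mean above that percentile. It is no limit of detection, since Foxp3 in both Tconv groups also lay above it. So did the neutrophil marker Mpo, with group means from 6.73 to 6.86. Dim genes of the 39, such as Ifitm2 (mean 6.12), Mx1 (6.13) and Eif2ak2 (6.24), may therefore be near background. These are bulk samples, so more RNA per cell and more cells with the RNA cannot be told apart. With 3 arrays a group, the number of arrays limits precision.

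**Figure D1:**
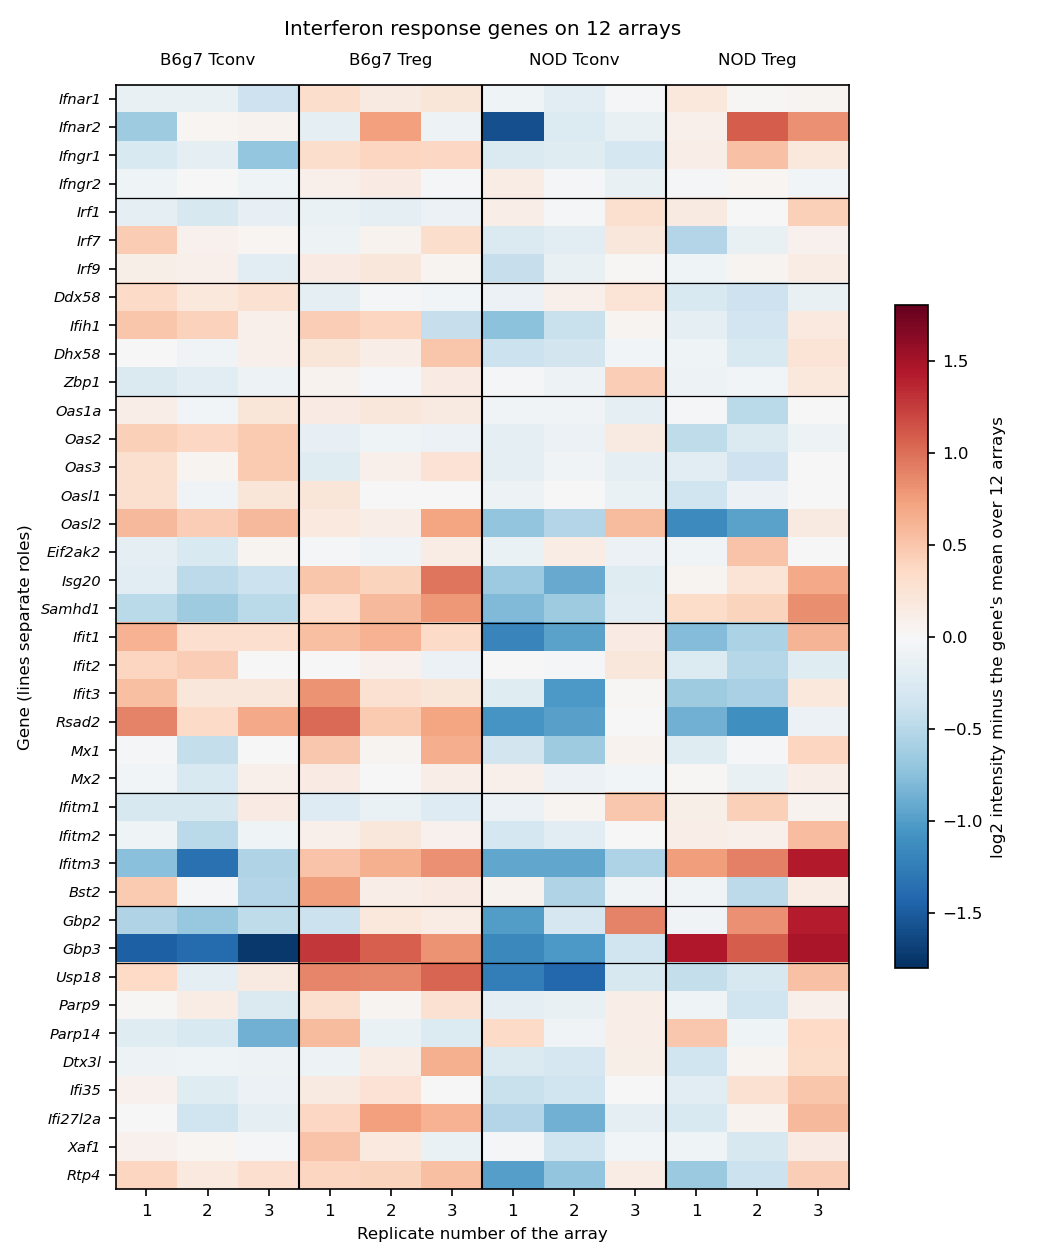
Log2 intensity of the 39 interferon response genes (rows, grouped by role) on the 12 arrays (columns, grouped by strain and population), each minus the gene's mean over all arrays. Gbp3 and Ifitm3 separate Treg from Tconv in both strains, Rsad2 separates the strains, and the NOD arrays numbered 3 are the highest of the 3 NOD arrays in both populations for 26 genes.

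Values below are log2 intensities, listed for replicates 1, 2 and 3 of a group, and differences are log2 differences of group means ± the standard error of the limma fit with 3 arrays a group. A gene was called at a Benjamini-Hochberg adjusted p under 0.05 over all 45037 probe sets tested. By this rule 13 of the 39 genes were called in at least 1 of 7 comparisons and 26 in none.

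In both strains, Treg cells carried more RNA of several interferon response genes than Tconv cells, with Gbp3, Ifitm3 and Samhd1 the furthest apart. Averaged over both strains, 8 of 39 genes were higher in Treg and 2 were lower, where 4.46% of all genes were called higher and 3.03% lower. The 8 were Gbp3, Ifitm3, Samhd1, Isg20, Usp18, Ifi27l2a, Ifngr1 and Ifnar1, and the 2 were Oas2 and Ddx58. In B6g7, 6 were higher and 1 lower (2.84% and 1.7% of all genes), and in NOD, 4 were higher and 0 lower (2.86% and 1.52%). The median difference of the 39 genes over both strains was 0.17, and that of all genes was -0.01. All 6 Treg arrays were above all 6 Tconv arrays for 7 of the 39 genes and for 2.97% of all genes, and the opposite held for 0 of the 39 and 1.86% of all genes. Of the IFIT, viperin and Mx effectors, which are induced most strongly by type I interferon, 0 of 6 were called. The B6g7 count fell from 7 to 4 without B6g7 Tconv replicate 3 or without B6g7 Treg replicate 3. With the replicate number as a block, 16 genes were called over both strains in place of 10 (10.6% of all genes), the added ones being Ifit2, Ifitm2, Mx1, Dhx58, Gbp2 and Ifnar2. Here and below, this block ties together all arrays of a number. The labels state no such pairing, and the B6g7 Tconv arrays did not count as paired with B6g7 Treg or NOD Tconv.

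**Figure D2:**
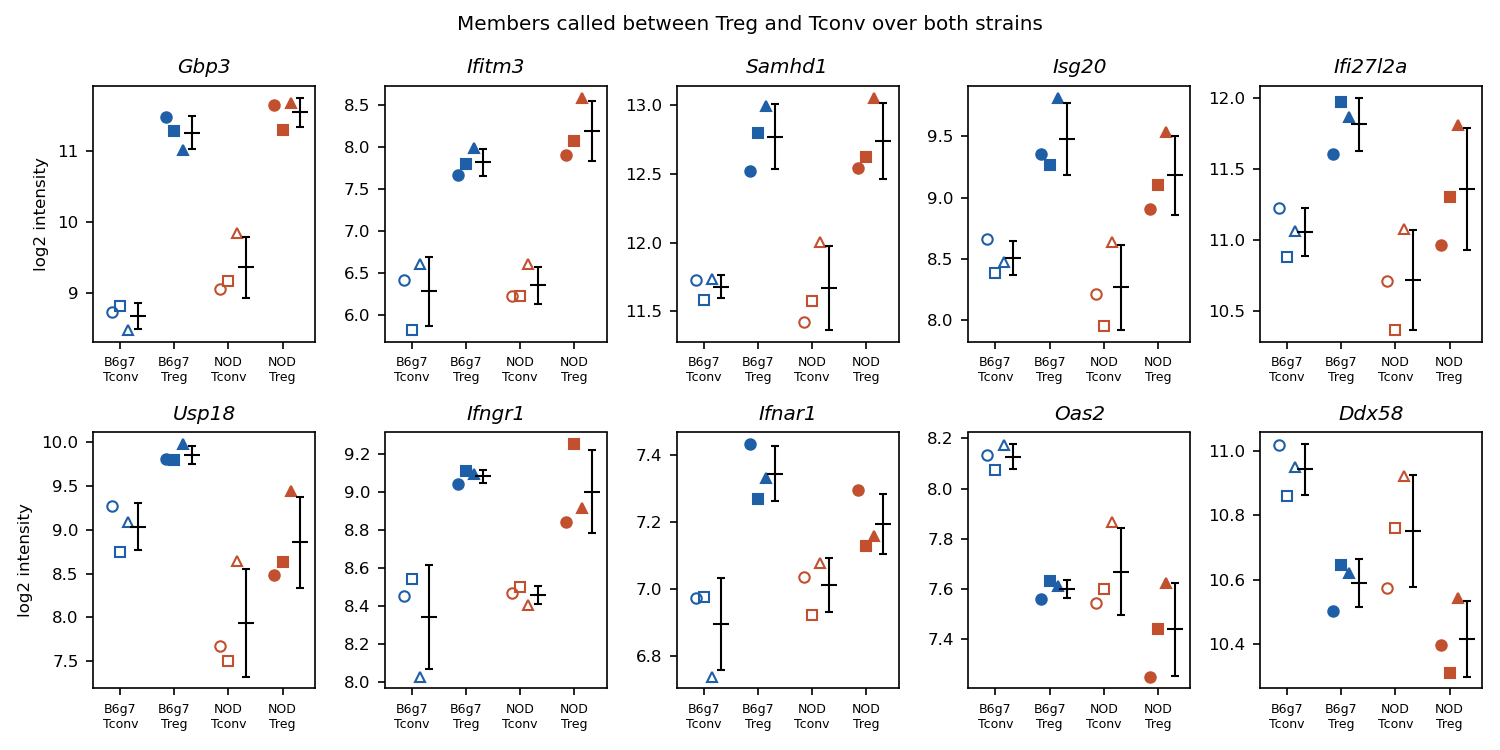
Log2 intensity on each array of the 10 interferon response genes called between Treg and Tconv over both strains (open symbols Tconv, filled symbols Treg, blue B6g7, orange NOD; circle, square and triangle are replicates 1, 2 and 3; bars show mean ± SD, n = 3; the vertical axes do not start at 0). For Gbp3, Ifitm3, Samhd1, Isg20, Ifngr1 and Ifnar1 every Treg array lies above every Tconv array.

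Among the receptor chains, Ifngr1 (probe set 1448167_at), the ligand-binding chain for interferon gamma, read 8.45, 8.54 and 8.03 in B6g7 Tconv, 9.04, 9.11 and 9.10 in B6g7 Treg, 8.47, 8.50 and 8.41 in NOD Tconv and 8.84, 9.25 and 8.92 in NOD Treg. All 6 Treg arrays were above all 6 Tconv arrays. The difference was 0.64 ± 0.10 over both strains (limma, adjusted p = 0.00095), with 0.74 ± 0.14 in B6g7 (adjusted p = 0.00759) and 0.54 ± 0.14 in NOD (adjusted p = 0.0531, not called). With the replicate number as a block, the NOD value was called (limma, adjusted p = 0.0133).

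Ifnar1 (1449026_at), a chain of the type I receptor, read 6.97, 6.98 and 6.74 in B6g7 Tconv, 7.43, 7.27 and 7.33 in B6g7 Treg, 7.04, 6.92 and 7.08 in NOD Tconv and 7.29, 7.13 and 7.16 in NOD Treg. Treg arrays were again above Tconv arrays without overlap, by 0.32 ± 0.07 over both strains (limma, adjusted p = 0.0128) and 0.45 ± 0.10 in B6g7 (adjusted p = 0.0199). These levels were close to those of the neutrophil marker Ltf (group means from 6.995 to 7.15), so they may be near background. A second Ifnar1 probe set gave 0.56 with an adjusted p of 0.13, which was not called. The B6g7 call was lost without B6g7 Tconv replicate 3, B6g7 Treg replicate 1 or B6g7 Treg replicate 3 (limma, adjusted p up to 0.0793). The call over both strains was lost without the 4 arrays numbered 1, or without both NOD arrays numbered 1 or both numbered 2 (adjusted p up to 0.112).

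The second chain, Ifnar2, was uncertain. Its brightest probe set (1440169_x_at) read 6.84, 8.18 and 8.29 in NOD Tconv and 8.52, 9.51 and 9.24 in NOD Treg, a wide spread within each group, and its difference over both strains of 0.83 ± 0.27 was not called (limma, adjusted p = 0.122). Another Ifnar2 probe set (1451462_a_at) gave 0.38 ± 0.09 and was called (adjusted p = 0.0206). The same probe set was 0.34 ± 0.09 higher in NOD over both populations (adjusted p = 0.0432), where the brightest one gave 0.02 ± 0.27. Ifngr2, the signalling chain for interferon gamma, differed by 0.06 ± 0.06 over both strains and was not called (adjusted p = 0.818). In the RefSeq gene order Ifnar2, Il10rb, Ifnar1 and Ifngr2 lie next to each other with no protein-coding gene between them.

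None of the 3 transcription factors was called between Treg and Tconv in the 3 comparisons. Over both strains Irf1 differed by 0.06 ± 0.08, Irf7 by -0.10 ± 0.13 and Irf9, a DNA-binding factor of the type I interferon response, by 0.17 ± 0.09. All 3 differences were within about 2 standard errors, with adjusted p of 0.44 or more in limma.

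Of the 4 nucleic acid sensors, Ddx58 (1436562_at), which encodes the viral RNA sensor RIG-I, was lower in Treg. It read 11.02, 10.86 and 10.95 in B6g7 Tconv, 10.50, 10.64 and 10.62 in B6g7 Treg, 10.57, 10.76 and 10.92 in NOD Tconv and 10.40, 10.31 and 10.54 in NOD Treg. Within each strain every Treg array was below every Tconv array, while NOD Tconv overlapped B6g7 Treg. The difference over both strains was -0.34 ± 0.07 (limma, adjusted p = 0.0127), and it was not called within a single strain. It was lost without the 4 arrays numbered 1 or without both NOD arrays numbered 2 (adjusted p up to 0.0926). Of the other 2 Ddx58 probe sets, 0 were called, with -0.33 and -0.16. Ifih1, Dhx58 and Zbp1, the other sensors, were not called.

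The RNA and nucleotide enzymes split by gene. Samhd1 (1434438_at), which cleaves deoxynucleotides, read 11.73, 11.58 and 11.73 in B6g7 Tconv, 12.52, 12.80 and 12.99 in B6g7 Treg, 11.42, 11.57 and 12.01 in NOD Tconv and 12.54, 12.62 and 13.06 in NOD Treg. All Treg arrays were above all Tconv arrays, by 1.09 ± 0.17 in B6g7 (limma, adjusted p = 0.00256) and 1.07 ± 0.17 in NOD (adjusted p = 0.00314). Over both strains the difference was 1.08 ± 0.12, a 2.12-fold higher intensity (adjusted p = 9.17e-05). All 4 other Samhd1 probe sets were called higher as well, with differences from 0.72 to 1.33.

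Isg20 (1419569_a_at), an RNA exonuclease, read 8.66, 8.39 and 8.48 in B6g7 Tconv, 9.36, 9.26 and 9.81 in B6g7 Treg, 8.21, 7.95 and 8.64 in NOD Tconv and 8.90, 9.10 and 9.53 in NOD Treg. Treg and Tconv did not overlap, and the difference over both strains was 0.94 ± 0.14, or 1.92-fold (limma, adjusted p = 0.00102). It was called in B6g7 (0.97 ± 0.20, adjusted p = 0.0171) and in NOD (0.91 ± 0.20, adjusted p = 0.0261). The B6g7 call was lost without B6g7 Tconv replicate 2 or 3 or B6g7 Treg replicate 3 (adjusted p up to 0.085). The NOD call was lost without NOD Tconv replicate 1 or 2 or NOD Treg replicate 2 or 3 (adjusted p up to 0.13), and in a fit to the NOD arrays alone, without the 4 arrays numbered 1 or without both NOD arrays numbered 1 or 2 (adjusted p up to 0.254).

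Oas2 (1425065_at), which makes the short oligoadenylates that activate RNase L, went the other way. It read 8.13, 8.07 and 8.17 in B6g7 Tconv, 7.56, 7.63 and 7.61 in B6g7 Treg, 7.54, 7.60 and 7.87 in NOD Tconv and 7.25, 7.44 and 7.62 in NOD Treg. The B6g7 Tconv arrays stood above all other 9 arrays. The Treg to Tconv difference was -0.53 ± 0.11 in B6g7 (limma, adjusted p = 0.0179), -0.23 ± 0.11 in NOD (adjusted p = 0.503, not called) and -0.38 ± 0.08 over both strains (adjusted p = 0.00999). Leaving out any 1 of the 6 B6g7 arrays ended the B6g7 call (adjusted p up to 0.0648), and the call over both strains was lost without the 4 arrays numbered 1 (adjusted p = 0.0615). The other members of its family, Oas1a, Oas3, Oasl1 and Oasl2, and Eif2ak2, the kinase PKR, were not called between Treg and Tconv.

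Ifitm3 (1423754_at), a membrane protein that restricts viral entry, read 6.41, 5.82 and 6.61 in B6g7 Tconv, 7.66, 7.80 and 7.98 in B6g7 Treg, 6.23, 6.22 and 6.60 in NOD Tconv and 7.90, 8.07 and 8.58 in NOD Treg. The lowest Treg array was about 1 log2 unit above the highest Tconv array. Over both strains the difference was 1.68 ± 0.15, or 3.21-fold (limma, adjusted p = 1.07e-05), with 1.53 ± 0.21 in B6g7 (adjusted p = 0.000845) and 1.83 ± 0.21 in NOD (adjusted p = 0.000218). Its neighbours in the genome differed less, with 0.38 ± 0.10 for Ifitm2 (adjusted p = 0.0567) and -0.00 ± 0.12 for Ifitm1 (adjusted p = 0.999), and neither was called. Bst2, the tetherin that holds budding virus at the cell surface, was not called either (0.20 ± 0.18).

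Gbp3 (1418392_a_at), a guanylate-binding protein induced by interferon gamma, showed the largest difference between Treg and Tconv of the 39 genes. It read 8.73, 8.82 and 8.47 in B6g7 Tconv, 11.47, 11.29 and 11.02 in B6g7 Treg, 9.05, 9.17 and 9.85 in NOD Tconv and 11.64, 11.30 and 11.68 in NOD Treg. No Treg array came within 1 log2 unit of a Tconv array. The difference was 2.59 ± 0.20 in B6g7, or 6.00-fold (limma, adjusted p = 5.02e-06), 2.19 ± 0.20 in NOD, or 4.55-fold (adjusted p = 2.69e-05), and 2.39 ± 0.14 over both (adjusted p = 2.13e-07). Gbp2, its close relative, spread widely in NOD and was not called (0.70 ± 0.30, adjusted p = 0.283).

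Usp18 (1418191_at), the enzyme that removes ISG15 from proteins and dampens the type I receptor, read 9.27, 8.75 and 9.08 in B6g7 Tconv, 9.80, 9.79 and 9.97 in B6g7 Treg, 7.67, 7.51 and 8.64 in NOD Tconv and 8.49, 8.63 and 9.44 in NOD Treg. Treg was above Tconv without overlap in B6g7, while in NOD the highest Tconv array passed the lowest Treg arrays. The difference over both strains was 0.87 ± 0.20 (limma, adjusted p = 0.0226). It was not called within a strain, with 0.82 ± 0.29 in B6g7 and 0.92 ± 0.29 in NOD (adjusted p = 0.222 and 0.156), but it was called in NOD with the replicate number as a block (adjusted p = 0.0135). The call over both strains was lost without B6g7 Tconv replicate 2, B6g7 Treg replicate 3, NOD Tconv replicate 1 or 2, or NOD Treg replicate 3 (adjusted p up to 0.0691), and without both NOD arrays numbered 2 (adjusted p = 0.0873).

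Ifi27l2a (1426278_at), an interferon-induced gene of the Ifi27 family, read 11.22, 10.88 and 11.06 in B6g7 Tconv, 11.61, 11.97 and 11.87 in B6g7 Treg, 10.71, 10.37 and 11.07 in NOD Tconv and 10.96, 11.30 and 11.81 in NOD Treg. The strains overlapped, as did Treg and Tconv within NOD. The difference between Treg and Tconv was 0.70 ± 0.15 over both strains (limma, adjusted p = 0.0128), and was not called without both NOD arrays numbered 2 (adjusted p = 0.0723). The ADP-ribose genes Parp9, Parp14 and Dtx3l, which lie side by side in the genome, were not called.

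The change from Tconv to Treg was then compared between the strains. Of the 39 genes, 0 were called for this difference in limma and 0 had an unadjusted p under 0.05, while 0.11% of all genes (20 genes) were called. The largest estimates, NOD change minus B6g7 change, were 0.97 ± 0.55 for Ifnar2, 0.45 ± 0.35 for Ifih1, -0.40 ± 0.28 for Gbp3 and -0.40 ± 0.33 for Parp14, all with an adjusted p of 0.962. The smaller Treg to Tconv gap of Ifngr1 and Oas2 in NOD was therefore not called different from that in B6g7. With the replicate number as a block, NOD Treg against NOD Tconv had 7 genes called in place of 4 (6.81% of all genes), the added ones being Usp18, Ifnar2 and Ifngr1.

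Between the strains, several genes that type I interferon induces were lower in NOD, with Rsad2 and Usp18 the furthest apart. Averaged over Tconv and Treg, 4 of 39 genes were lower in NOD (Rsad2, Usp18, Ifit3 and Oas2) and 1 was higher (Irf1), where 2.56% of all genes were called lower and 3.25% higher. The fit behind these calls treats the 6 arrays of a strain as independent, although same-numbered NOD Tconv and NOD Treg arrays were correlated. In Tconv 2 were lower and 0 higher (1.45% and 1.6% of all genes), and in Treg 1 was lower and 0 higher (1.49% and 1.84%). The estimate was below 0 for 28 of the 39 genes (71.8%) and for 44.4% of all genes, and 20 of the 39 (51.3%) had an unadjusted p under 0.05, as did 13.8% of all genes. The median difference of the 39 genes was -0.18, and that of all genes was 0.01. Because the 39 genes were chosen with earlier results of these data known, these shares and medians describe the set and are no independent support. With the replicate number as a block, the genes called lower in NOD over both populations were 9 in place of 4 (3.48% of all genes), the added ones being Ifit1, Oas3, Oasl2, Dhx58 and Rtp4, and Irf1 was again the gene called higher. In Tconv the block gave 4 lower in place of 2, adding Usp18 and Rtp4 (2.23% of all genes). The count over both populations moved to 2 or 3 without any 1 of 9 arrays, namely B6g7 Tconv replicate 1 or 2, any B6g7 Treg array, and NOD Tconv or NOD Treg replicate 1 or 2. In Tconv it moved to 0 without B6g7 Tconv replicate 1 or 3 or NOD Tconv replicate 1 or 2, to 1 without B6g7 Tconv replicate 2, any B6g7 Treg array or NOD Treg replicate 2, and to 5 without NOD Tconv replicate 3. In Treg it moved to 0 without B6g7 Treg replicate 1 or 3 or NOD Treg replicate 1 or 2, to 2 without NOD Tconv replicate 3 and to 3 without NOD Treg replicate 3.

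**Figure D3:**
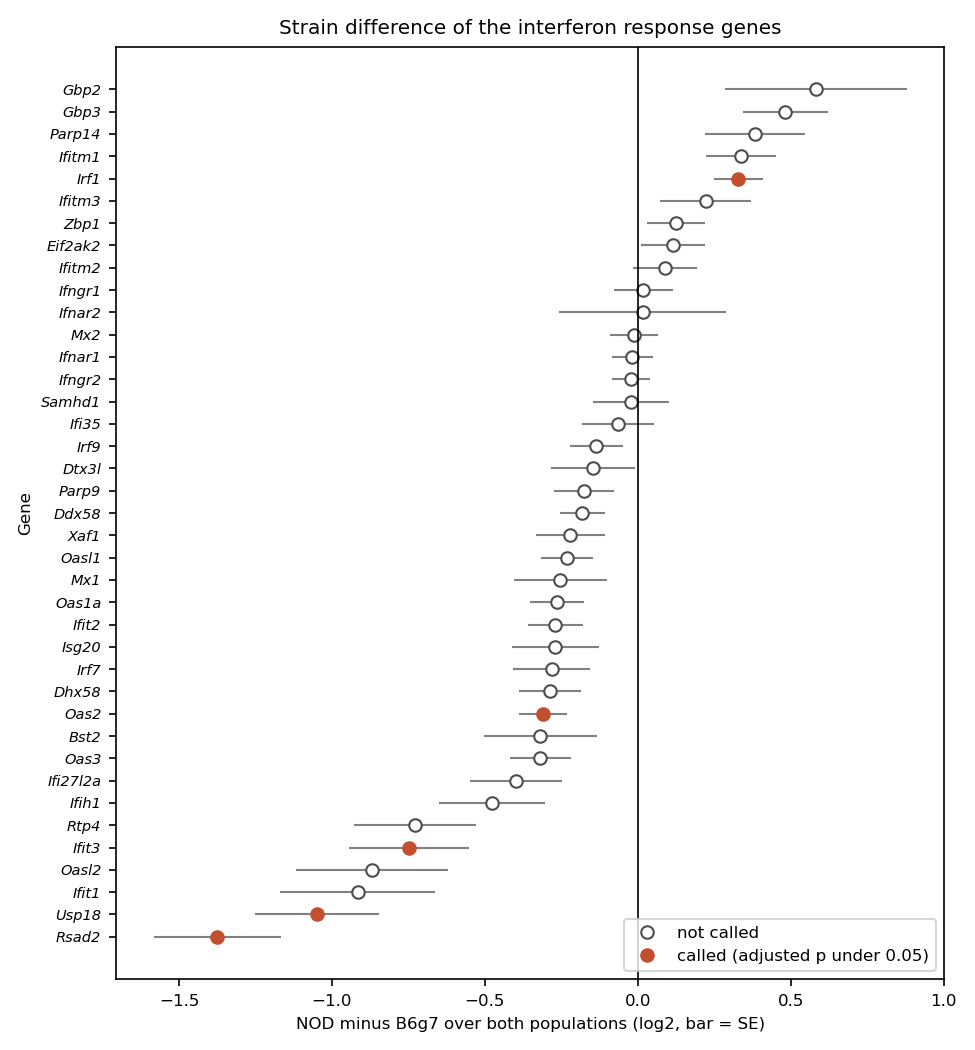
Difference of NOD minus B6g7 over both populations for each of the 39 interferon response genes (log2, points are estimates, bars the standard error of the limma fit, 6 arrays a strain). The fit treats the 6 arrays of a strain as independent. The 28 genes left of 0 range down to Rsad2 at -1.37, and filled points mark the 5 called genes.

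Rsad2 (1436058_at) encodes viperin, a radical SAM enzyme that makes a chain-terminating nucleotide. It read 10.04, 9.50 and 9.82 in B6g7 Tconv, 10.16, 9.62 and 9.86 in B6g7 Treg, 8.08, 8.17 and 9.13 in NOD Tconv and 8.29, 8.04 and 9.03 in NOD Treg. All 6 NOD arrays were below all 6 B6g7 arrays, which held for 2 of the 39 genes and 1.48% of all genes, and in NOD the arrays numbered 3 were the closest to B6g7. The difference was -1.37 ± 0.21 over both populations, a 2.59-fold lower intensity in NOD (limma, adjusted p = 0.00108), with -1.32 ± 0.29 in Tconv (adjusted p = 0.0287) and -1.43 ± 0.29 in Treg (adjusted p = 0.017). Without both NOD arrays numbered 3, the highest arrays of their groups for this gene, it was -1.69. The Tconv call was lost without B6g7 Tconv replicate 1 or 3 or NOD Tconv replicate 1 or 2 (adjusted p up to 0.136), and the Treg call without B6g7 Treg replicate 1 or 3 or NOD Treg replicate 1 or 2 (adjusted p up to 0.0873).

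The probe sets of Rsad2 differed in size. A second one (1421009_at) gave -2.14 ± 0.17 over both populations (limma, adjusted p = 4.1e-06), and the remaining one (1421008_at), whose mean lay under the 25th percentile, gave -0.13 ± 0.09 and was not called. Whether sequence differences of NOD under the probes contribute to this was not tested. The gene next to Rsad2 in RefSeq order is Cmpk2, a mitochondrial nucleotide kinase, which was lower in NOD by 0.62 on the log2 scale (adjusted p = 0.027).

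Usp18, whose values are given above, was lower in NOD in each population without overlap, by -1.10 ± 0.29 in Tconv and -1.001 ± 0.29 in Treg (limma, adjusted p = 0.0732 and 0.107, neither called). Over both populations the difference was -1.05 ± 0.20 (adjusted p = 0.00696). It stayed called when each of the 12 arrays was left out in turn (adjusted p up to 0.0234). It was -1.37 without both NOD arrays numbered 3, the highest arrays of their groups for this gene. The call was lost without the 4 arrays numbered 1 or without both NOD arrays numbered 2 (adjusted p up to 0.0809). With the replicate number as a block, NOD Treg against B6g7 Treg had 3 genes called lower in place of 1 (2.22% of all genes), the added ones being Oasl2 and Usp18.

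Ifit3 (1449025_at), which belongs to a family of proteins that bind viral RNA, read 9.17, 8.83 and 8.83 in B6g7 Tconv, 9.44, 8.90 and 8.85 in B6g7 Treg, 8.41, 7.60 and 8.65 in NOD Tconv and 7.99, 8.05 and 8.82 in NOD Treg. Every NOD array was below every B6g7 array, though NOD Treg replicate 3 only just. The difference over both populations was -0.75 ± 0.20 (limma, adjusted p = 0.0445). Leaving out any 1 of 10 arrays, all but the NOD arrays numbered 3, ended this call (adjusted p up to 0.115), as did array weights, 16 added before log2, and leaving out the 4 arrays numbered 1 or both NOD arrays numbered 1 or 2 (adjusted p up to 0.253).

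Oas2 was 0.31 lower on the log2 scale in NOD over both populations (-0.31 ± 0.08, limma, adjusted p = 0.0363), with -0.46 ± 0.11 in Tconv (adjusted p = 0.0454) and -0.16 ± 0.11 in Treg (adjusted p = 0.773). NOD and B6g7 did not overlap in Tconv but did in Treg. The call over both populations was also lost without any 1 of the 10 arrays other than the NOD arrays numbered 3 (adjusted p up to 0.1), and without the 4 arrays numbered 1 or both NOD arrays numbered 1 or 2 (adjusted p up to 0.29). The Tconv call was lost without any 1 of 9 arrays, namely all 6 B6g7 arrays, NOD Tconv replicates 1 and 2 and NOD Treg replicate 2 (adjusted p up to 0.212).

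Irf1 (1448436_a_at), a transcription factor induced most directly by interferon gamma, was the 1 gene called higher in NOD. It read 11.60, 11.48 and 11.62 in B6g7 Tconv, 11.65, 11.60 and 11.65 in B6g7 Treg, 11.89, 11.75 and 12.06 in NOD Tconv and 11.92, 11.77 and 12.19 in NOD Treg. All NOD arrays were above all B6g7 arrays, which held for 1 of the 39 genes and 1.78% of all genes. The difference was 0.33 ± 0.08 over both populations (limma, adjusted p = 0.0312), the same to 2 decimals in Tconv and in Treg, where it was not called. The call was lost without any 1 of 9 arrays, namely B6g7 Tconv replicate 1 or 2, any B6g7 Treg array and the NOD arrays numbered 1 or 3 (adjusted p up to 0.0899). Without both NOD arrays numbered 3 the difference was 0.23 (adjusted p = 0.158), and the call was also lost after a further quantile normalization, without the 4 arrays numbered 1 and without both NOD arrays numbered 1. Irf7 and Irf9 were not called, with -0.28 ± 0.13 and -0.14 ± 0.09.

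**Figure D4:**
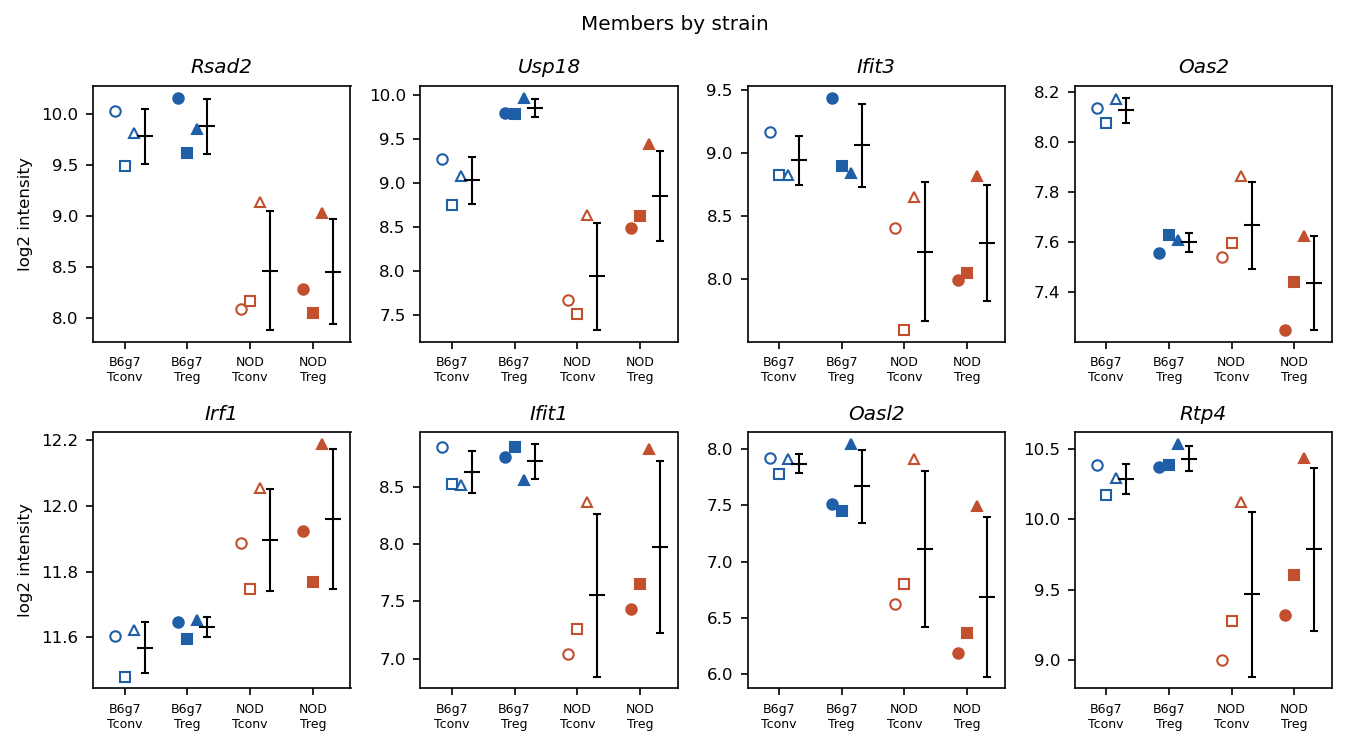
Log2 intensity on each array of the 5 genes called between the strains over both populations and of Ifit1, Oasl2 and Rtp4 (open symbols Tconv, filled symbols Treg, blue B6g7, orange NOD; circle, square and triangle are replicates 1, 2 and 3; bars show mean ± SD, n = 3; the vertical axes do not start at 0). For Ifit1, Oasl2 and Rtp4 the NOD Treg array numbered 3 (filled triangle) lies within the range of B6g7 Treg and the NOD arrays numbered 1 and 2 lie below all B6g7 arrays.

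The largest strain differences that were not called belonged to Ifit1, Oasl2, Rtp4 and Gbp2. Ifit1 (1450783_at) binds viral RNA that lacks the host cap. It read 8.85, 8.53 and 8.52 in B6g7 Tconv, 8.76, 8.85 and 8.56 in B6g7 Treg, 7.04, 7.26 and 8.37 in NOD Tconv and 7.43, 7.65 and 8.84 in NOD Treg. NOD replicates 1 and 2 were below all B6g7 arrays in both populations, while NOD Treg replicate 3 lay within the B6g7 range and NOD Tconv replicate 3 just under it. The difference over both populations was -0.92 ± 0.25 (limma, adjusted p = 0.0583).

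Oasl2 (1453196_a_at), an oligoadenylate synthetase-like protein, read 7.92, 7.77 and 7.91 in B6g7 Tconv, 7.51, 7.45 and 8.04 in B6g7 Treg, 6.63, 6.80 and 7.91 in NOD Tconv and 6.19, 6.37 and 7.50 in NOD Treg. The arrays numbered 3 of NOD overlapped B6g7 and the others did not. Its difference was -0.87 ± 0.25 (limma, adjusted p = 0.07). Rtp4 (1418580_at), an interferon-induced chaperone of membrane receptors, read 10.39, 10.17 and 10.29 in B6g7 Tconv, 10.37, 10.39 and 10.53 in B6g7 Treg, 9.004, 9.28 and 10.12 in NOD Tconv and 9.32, 9.60 and 10.43 in NOD Treg. Here NOD Treg replicate 3 was within the B6g7 range, NOD Tconv replicate 3 just under it and the other NOD arrays well under it, with a difference of -0.73 ± 0.20 (adjusted p = 0.0564).

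Gbp2 (1435906_x_at), a GTPase induced by interferon gamma, read 10.14, 9.99 and 10.21 in B6g7 Tconv, 10.29, 10.86 and 10.81 in B6g7 Treg, 9.66, 10.37 and 11.56 in NOD Tconv and 10.62, 11.49 and 12.09 in NOD Treg. The NOD arrays numbered 3 were the highest of their groups here too, but above the B6g7 arrays and not level with them. The difference was 0.58 ± 0.30 (limma, adjusted p = 0.462).

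The NOD arrays numbered 3 stood apart from the other NOD arrays for the interferon response genes as a group. In each NOD population that array was the highest of the 3 for 26 of 39 genes (66.7%), against 18.6% of all genes. It was more than 0.5 above both other arrays in both populations for 6 genes, namely Ifit1, Oasl2, Rsad2, Usp18, Rtp4 and Gbp2, and for 7 of all 18193 genes (0.0385%). The seventh was Ifit1bl1, a gene of the Ifit family that is not among the 39 and was singled out after its values were seen. For the arrays of each other replicate number in NOD, and of all 3 numbers in B6g7, 0 of the 39 genes stood that far above the other arrays in both populations, where the counts over all genes ran from 0 to 138, the highest for NOD replicate 1. The NOD arrays numbered 1 stood that far below both others in both populations for 2 of the 39 genes, Gbp2 and Ifnar2, and for 73 of all genes (0.401%).

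**Figure D5:**
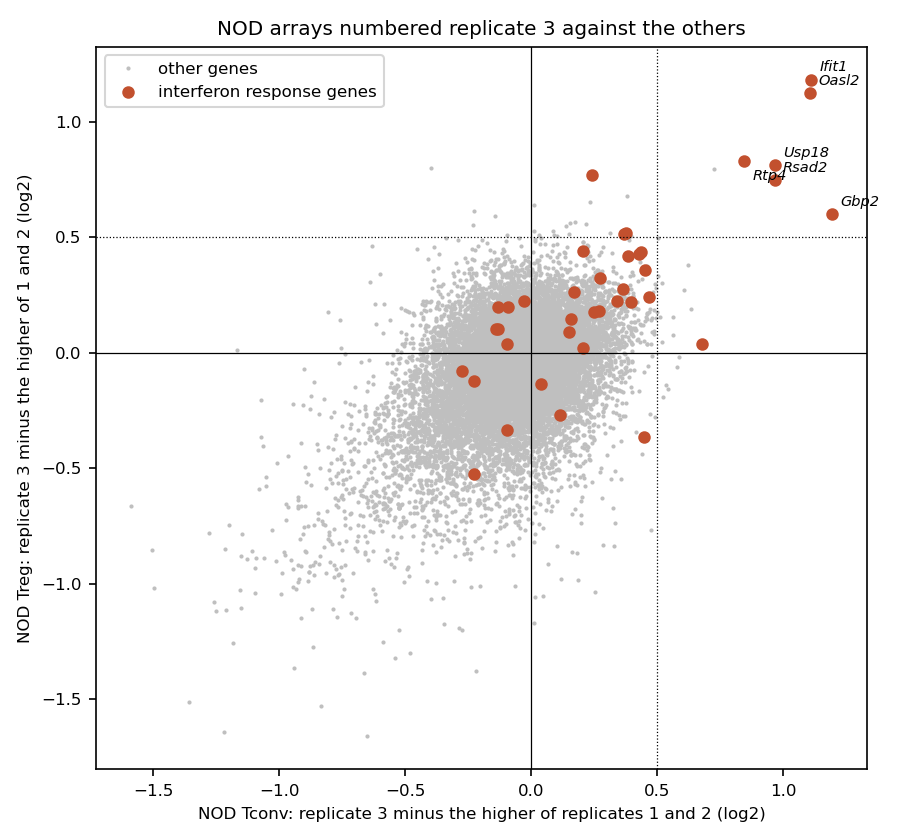
For each gene, how far the NOD array numbered 3 lies above the higher of NOD replicates 1 and 2, in Tconv (horizontal axis, log2) and in Treg (vertical axis, log2). Orange points are the 39 interferon response genes, grey points all other genes, and dotted lines mark a margin of 0.5, which 6 orange points and 1 grey point exceed on both axes.

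The margin of the array numbered 3 over the higher of the other 2 was 1.11 in Tconv and 1.18 in Treg for Ifit1, 1.11 and 1.12 for Oasl2, and 0.97 and 0.81 for Usp18. It was 0.97 and 0.75 for Rsad2, 0.84 and 0.83 for Rtp4, and 1.19 and 0.60 for Gbp2. Over the 39 genes the median margin was 0.27 in NOD Tconv and 0.22 in NOD Treg, where all genes had -0.06 and -0.04, and the same median for the B6g7 arrays numbered 3 was -0.08 and -0.03. The receptor chains did not follow this pattern, since none of the 4 had the array numbered 3 highest in both populations. The spread followed, with a median SD within groups of 0.26 in NOD and 0.18 in B6g7 for the 39 genes, against 0.13 and 0.15 for all genes. Deviations from the group mean over the 39 genes correlated between NOD Tconv and NOD Treg with r = 0.81 for number 3, 0.69 for number 1 and 0.58 for number 2, given as a description of these arrays.

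Some other measures were also high on the NOD arrays numbered 3. The difference between the 3′ and 5′ actin control probes, a sign of RNA integrity and amplification, was 4.25 on the NOD Tconv array numbered 3 against 2.97 and 3.79 on the others, and 4.48 on the NOD Treg array against 3.29 and 4.70. The same difference for Gapdh was the highest on number 3 in both populations, with 5.09 against 4.49 and 4.74 in Tconv and 5.248 against 4.35 and 5.238 in Treg. Over all 12 arrays they ran from 2.66 to 4.70 for actin and from 4.18 to 5.48 for Gapdh, and the part of RNA integrity in the margin was not tested. The labelled share of Foxp3+ cells in NOD Treg was 89% for replicate 1 and 95% for both replicate 2 and replicate 3. Of the markers of other cells, 0 of 8 monocyte and macrophage genes, 0 of 6 neutrophil genes and 1 of 7 B cell genes had these arrays highest in both populations, as did 18.6% of all genes. For plasmacytoid dendritic cells, which make type I interferon, it was 3 of 7 genes (Tcf4, Pacsin1 and Irf8), and 1 of the 7, Bst2, is itself among the 39. The summed intensity of the 7 was the highest on number 3 in both populations, with 2206 against 1655 and 1902 in NOD Tconv and 3116 against 2321 and 2741 in NOD Treg. It ran from 2304 to 2541 in B6g7 Tconv and from 2430 to 2910 in B6g7 Treg. Pacsin1 was the brightest of the 7, with group means from 9.50 to 10.18, so the sum follows this gene more than the others. Ccr9 was the highest on number 2, with 8.48 against 7.52 and 8.37 in NOD Tconv and 9.38 against 8.80 and 9.25 in NOD Treg. Plasmacytoid dendritic cells carry B220, a marker left out by the sort, and how many of them remained was not measured. Siglech, of the same list, varied little, from 7.22 to 7.58 over all 12 arrays. It read 7.47, 7.43 and 7.55 in NOD Tconv and 7.42, 7.58 and 7.46 in NOD Treg. The part of such cells in the margin was not tested.

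Without both NOD arrays numbered 3, a setting chosen after the data were seen, the count called between the strains went from 5 to 9 over both populations, from 2 to 6 in Tconv and from 1 to 5 in Treg. Those arrays were the highest of their groups for many of these genes. Larger differences and more calls without them therefore follow from the choice and are no further support. All of these were lower in NOD, as were 2.08%, 1.06% and 0.989% of all genes in this setting. The 9 genes were Rsad2, Usp18, Ifit3 and Oas2, called before, with Ifit1, Oasl2, Rtp4, Ifi27l2a and Dhx58. Ifit1 then differed by -1.33, Oasl2 by -1.27 and Rtp4 by -1.05. Without both NOD arrays numbered 1 the count over both populations was 3 (4.79% of all genes called), and without both numbered 2 it was 2 (4.22%). Over all 12 arrays, the 9 genes with an ISRE match had a median strain difference of -0.32 and the 20 with an entry and no match -0.10, and the estimate was below 0 for 6 of the 9 and 14 of the 20.

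Among the 26 genes called in no comparison, the 6 with the highest mean intensity were Parp14, Ifi35, Gbp2, Dtx3l, Ifih1 and Rtp4. Parp14, an ADP-ribosyltransferase, was 0.38 ± 0.16 higher in NOD over both populations and 0.32 ± 0.16 higher in Treg over both strains, and neither was called in limma (adjusted p = 0.314 and 0.433). Ifih1, the RNA sensor MDA5, had -0.48 ± 0.17 between the strains (adjusted p = 0.195). Mx1, a gene of the dynamin-like GTPases, had 0.45 ± 0.15 between Treg and Tconv (adjusted p = 0.133). Ifi35 and Dtx3l had -0.07 ± 0.12 and -0.15 ± 0.14 between the strains.

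The rest of the pathway was examined in 6 lists. Over all genes, 4.46% were called higher and 3.03% lower in Treg over both strains. In NOD over both populations 3.25% of all genes were called higher and 2.56% lower, and 1.6% were called higher in NOD Tconv. Against these shares, 1 call in a short list says little about the list. Of 14 measured signalling genes, 1 was lower in Treg over both strains, Ifi30, a lysosomal thiol reductase (-0.53 ± 0.12, limma, adjusted p = 0.022), and 1 was higher in NOD, Stat3 (0.44 ± 0.11, adjusted p = 0.0355). Of 7 other interferon regulatory factors, 1 was higher in Treg, Irf4, which Treg cells use to control T helper 2 responses (0.99 ± 0.15, limma, adjusted p = 0.000863). Irf4 was called in B6g7 (1.38 ± 0.21, adjusted p = 0.00169) and not in NOD, and it was also higher in NOD Tconv than in B6g7 Tconv (0.85 ± 0.21, adjusted p = 0.0492). Of 10 ligand and receptor genes, Il10rb, a chain of the interferon lambda receptor, was higher in Treg (0.73 ± 0.09, limma, adjusted p = 0.000287) and Ifng was lower (-0.79 ± 0.19, adjusted p = 0.03). Within a strain, Ifng was called in NOD (-1.18 ± 0.27, adjusted p = 0.0354) and not in B6g7. No ligand gene was called between the strains over both populations. The largest estimate was that of Ifng, 0.68 ± 0.19 higher in NOD (limma, adjusted p = 0.0712). Ifng read 9.43, 8.84 and 8.68 in B6g7 Tconv and 10.46, 9.70 and 9.98 in NOD Tconv. That difference of 1.07 in Tconv was not called either, and in Treg the strains overlapped.

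Of 15 genes of nucleic acid sensing, the RNA receptor Tlr7 was higher in Treg (1.13 ± 0.13, limma, adjusted p = 9.17e-05) and the ubiquitin ligase Rnf125 lower (-0.87 ± 0.22, adjusted p = 0.0381). Between the strains Tbk1, the kinase that activates Irf3, was higher in NOD (0.45 ± 0.11, adjusted p = 0.0251) and Rnaseh2c lower (-0.43 ± 0.08, adjusted p = 0.00641). A further list held 10 genes induced by interferon gamma, for the most part GTPases. Of these, 4 were higher in Treg, namely the GTPases Iigp1 (0.73), Gbp7 (0.72) and Gbp6 (0.65), and Nlrc5 (0.49), and 0 were lower. Of all genes 4.46% were called higher and 3.03% lower. Iigp1 was also higher in NOD (0.86 ± 0.16, adjusted p = 0.00486), while Nlrc5, the activator of MHC class I genes, was lower there (-0.50 ± 0.11, adjusted p = 0.0161).

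Most of the 47 other interferon-induced genes had a strain difference in the same direction as most of the 39. Because the list was chosen with earlier results of these data known, this is no independent support. Of the 47 genes, 6 were lower in NOD over both populations and 0 higher, where 2.56% of all genes were called lower and 3.25% higher. The estimate was below 0 for 36 of the 47 (76.6%) and for 44.4% of all genes, and the medians were -0.11 and 0.01. Ly6e, a surface protein that alters viral entry, read 11.08, 10.90 and 10.78 in B6g7 Tconv, 12.02, 12.03 and 12.37 in B6g7 Treg, 8.49, 8.51 and 8.69 in NOD Tconv and 8.72, 8.59 and 8.998 in NOD Treg. No NOD array came near a B6g7 array, the difference was -2.86 ± 0.09 (limma, adjusted p = 1.3e-09), and replicate 3 did not stand apart as it did for Rsad2. Apobec3, a cytidine deaminase that restricts retroviruses, differed by -1.42 ± 0.10 (adjusted p = 1.1e-06), and the other 4 were Epsti1 (-0.74), Ms4a4c (-0.65), Cmpk2 (-0.62) and Slfn1 (-0.39). Between Treg and Tconv over both strains 7 of the 47 were higher, among them Ms4a4c (0.99), Tdrd7 (0.97) and Tnfsf10, the death ligand TRAIL (0.67), and 2 were lower, Ccl5 (-1.34) and Slfn1 (-0.48). Of all genes 4.46% were called higher and 3.03% lower.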

How the data were processed

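The deposited table holds linear intensities, 1 per probe set and array, which the authors had normalized with RMA, per the submitters' processing notes and the series description. Its version is not given in the sources used here. Here log2 was taken of the deposited intensities with no further step. Control probe sets (64) were left out. RNA was amplified in 2 rounds, per the labels, which can shift levels toward the 3′ end.

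limma 3.58.1 in R 4.3.3 fitted a mean per group over all 12 arrays (lmFit, eBayes). P-values were Benjamini-Hochberg adjusted over 45037 probe sets. The fit was tested on simulated data with planted differences. Single-gene permutation tests were not run, since with 3 arrays in each group the smallest exact p is 0.1. The 39 genes, their roles and the 6 other lists were chosen with earlier results of these data known. Genes called in any comparison are given by array, others by counts, by level and by the 4 largest estimates per comparison. Symbols come from the platform annotation.

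The labels number replicates 1 to 3. Same-numbered deviations correlated over all probe sets with r = 0.564, 0.315 and 0.401 between NOD Tconv and NOD Treg and 0.671, 0.338 and 0.302 between B6g7 Treg and NOD Treg, so these pairs count as paired. B6g7 Tconv against B6g7 Treg (r = 0.521, -0.0797 and 0.504) and against NOD Tconv (0.436, -0.041 and 0.199) do not. The pairing is read from the data, not stated by the labels. A block by replicate number therefore also ties the B6g7 Tconv arrays to B6g7 Treg and NOD Tconv arrays with which they do not count as paired. The fit without a block treats the Tconv and Treg arrays of a strain as independent. Because NOD Tconv and NOD Treg count as paired, its standard errors and adjusted p for the strain comparison over both populations can be too small.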

Additional observations from a re-analysis of the deposited data

How the results depend on the processing

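The alternatives were followed for each gene with an unadjusted p under 0.05 in a comparison. Of these 1979 single-gene results 0 reversed direction, 1764 kept their side of the threshold, 108 lost a call and 107 gained one. Genes with larger p can change sign. Without both NOD arrays numbered 3, the strain difference over both populations did so for 4, namely Ifitm2 (0.09 to -0.03), Zbp1 (0.12 to -0.003), Ifnar2 (0.02 to -0.15) and Ifngr2 (-0.02 to 0.02). Gbp3, Ifitm3 and Samhd1 were called in Treg against Tconv, and Rsad2 between the strains over both populations, under every alternative run. The difference between strains in the Treg to Tconv change had 0 calls throughout. With the replicate number as a block, Treg against Tconv had 7 calls in NOD and 16 over both strains, and NOD against B6g7 had 4 in Tconv, 3 in Treg and 10 over both populations. The actin difference as a covariate gave 7 for Treg against Tconv in NOD, and 3 in Treg and 12 over both populations between the strains. Array weights gave 2 in Treg and 8 over both populations. A fit to the arrays compared gave 1 between the strains in Tconv. Without the 4 arrays numbered 1, NOD against B6g7 had 0 calls in Tconv, 0 in Treg and 2 over both populations. The 3 settings chosen after the data were seen left out both NOD arrays of a number. Leaving out number 1 gave 0, 0 and 3 for the strain comparison in Tconv, in Treg and over both populations, number 2 gave 0, 0 and 2, and number 3 gave 6, 5 and 9. The counts without number 3 follow in part from the choice of arrays. Number 2 also gave 6 for Treg against Tconv over both strains. Leaving out each array in turn gave 4 to 8 calls for Treg against Tconv in B6g7, 3 to 5 in NOD and 9 to 11 over both strains, 0 to 0 for their difference, and 0 to 5, 0 to 3 and 2 to 7 for the strain comparison in Tconv, in Treg and over both populations. The causes of these changes were not tested. Where a group is left with 2 arrays, its spread is taken from all groups. The strain counts thus rest on few calls near the threshold, and 3 arrays a group limit them.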

Other observations

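Ifit1bl1, a gene of the Ifit family outside the 39, was examined because it shared the margin of the NOD arrays numbered 3. It read 10.60, 10.65 and 10.56 in B6g7 Tconv, 11.14, 11.37 and 11.23 in B6g7 Treg, 8.85, 9.24 and 9.97 in NOD Tconv and 9.39, 9.50 and 10.29 in NOD Treg. All NOD arrays were below all B6g7 arrays, by -1.38 over both populations (limma, adjusted p = 0.000372), and the array numbered 3 was 0.73 above the others in NOD Tconv and 0.80 above them in NOD Treg. The gene was chosen after its values were seen.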
